A study of Mus musculus with 49 samples.

Results

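The genes of the respiratory chain and the ATP synthase were followed through mouse fibroblasts given reprogramming factors and through pluripotent stem cell lines. Members were all genes whose current mouse symbol begins with Nduf, Uqcr, Cox4 to Cox8 or Atp5, or is Sdha, Sdhb, Sdhc or Sdhd, and which had a named probe on the array. Of 13852 named genes, 77 were members. They comprised 33 subunits of complex I, 8 Ndufaf assembly factors of complex I, 4 subunits of complex II, 6 of complex III, 14 of complex IV (Ndufa4 among them) and 12 of complex V, the ATP synthase. The RefSeq table lists 96 genes under this rule, and 19 of them are not analysed here, among them Cox6b1, Cox7c, Uqcrb and Uqcrh. None of the 15 genes of mitochondrial DNA listed beside them had a tested probe, so the subunits encoded in the organelle itself are not analysed here.

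The respiratory chain passes electrons from NADH (complex I) and succinate (complex II) through coenzyme Q, complex III and cytochrome c to oxygen at complex IV, and pumps protons across the inner mitochondrial membrane. The ATP synthase lets the protons flow back and makes ATP. Pluripotent stem cells are known for relying on glycolysis more than fibroblasts do, while their mitochondria and respiratory genes stay active, and reprogramming is accompanied by a remodelling of both routes.

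Expression was measured on 49 one-colour arrays in 23 groups, of which 20 held 2 arrays and 3 held 3, to compare factors that might stand in for OCT4 or SOX2 and the cells made with them. Fibroblasts (MEF; strain OGXICR, female, age D13.5) came from the skin of limbs and tails with the epidermis removed, and were infected with a doxycycline-inducible lentiviral system carrying SKM (SOX2, KLF4 and MYC) or OKM (OCT4, KLF4 and MYC) together with 1 further factor or with EV, an empty vector. Controls with EV and no factor were MEF1 EV and MEF2 EV, and uninfected MEF served as a further reference. The iPSC lines G6Gm, G3 and Dlx3RNAi (induced pluripotent stem cells, labelled OGXICR), the embryonic stem cell (ESC) line R1 (strain 129) and the ESC line B6 (strain C57BL\6) were grown on mitomycin C-treated MEF, so their RNA can hold RNA of these feeder cells. Their medium held 1 µM PD0325901 and 3 µM CHIR99021, inhibitors of MEK and GSK3, for which the labels allow LIF as a substitute. The labels give the fibroblast groups a serum medium without these agents, so medium and cell type cannot be told apart where lines are set against MEF. The labels do not say when after infection the cells were taken, how many clones a line stands for, or whether arrays of a group are separate cultures, so p-values speak only of how far these arrays spread.

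The arrays fall into 5 sets, each made of arrays that lack a value for the same probes. The normalization is not given in the sources used here, the sets were taken as normalized apart, and values were compared within a set only. Set A held ESC B6; set B MEF2 EV and OKM+EV; set C OKM with SOX1, SOX2, SOX3 or GMNN; set D MEF1 EV and all SKM groups; and set E the uninfected MEF, the 3 iPSC lines and ESC R1. Of the members, 72 had a value in set A, 73 in B, 67 in C, 62 in D and 70 in E. A few arrays stood apart. OKM+EV array 3 correlated with the arrays of its set at 0.842 to 0.884, against 0.986 between the other OKM+EV arrays, and OKM+SOX2 array 1 at 0.89 to 0.905. In set D the median intensity over all genes was 668 to 674 on the 6 arrays of HNF4a, CEBPa and GRB2 with SKM and 628 to 660 on the other 17. The spread between arrays of a group was also uneven, with a median SD over all genes of 0.386 log2 units in set B and 0.222 in set C against 0.16 in D, 0.142 in E and 0.105 in A. The test, limma over all 49 arrays, pools these spreads. The count of members in each comparison is therefore given beside that of a fit to the arrays of the set alone. Counts of the fit over all arrays with 1 array left out, and counts at an unadjusted p, were taken over the members only. No share of all genes stands beside them. Single genes and other lists are judged by the fit over all arrays unless stated. A gene is said to have risen or fallen where its adjusted p was below 0.05 over all genes of the comparison, and differences are in log2 of intensity plus 32.

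Promoter sequence was available for 63 of the 77 members from RefSeq (build GRCm38.p6) as 300-base windows beginning 250 bases before the gene's start. The motifs of factors known to act on respiratory genes were searched on both strands. The motif of nuclear respiratory factor NRF1, written as GCGCANGCG, was present in 17 members (27.0 percent), against 7.03 percent of all 27025 genes with a window and 12.7 percent of the 11071 genes that had a named probe. The YY1 motif GCCATCTTG was present in 6 members (9.52 percent, against 1.42 percent of all genes and 2.22 percent of those with a named probe), the motif of estrogen-related receptors TGACCTTG in 2 (3.17 percent, against 1.76 and 1.33 percent), and the ETS family motif CCGGAAGT bound by GABP in 3 (4.76 percent, above the 4.31 percent of all genes and below the 7.38 percent of those with a named probe). The stretches below, 280 bases each, belong to 6 members chosen after their values were seen, the largest rises in the pluripotent lines (Uqcrfs1 and Sdhd) and 4 genes of the SKM groups. They are no sample of the members as to motifs. Capitals mark NRF1 motifs, and in Uqcr11 also the ETS motif. Ndufa8 (chr2:36049309-36049588, minus strand) holds 2 NRF1 motifs, Sdhd (chr9:50603820-50604099, minus strand) holds 1 and has, outside the printed stretch, a match to the motif of estrogen-related receptors, Ndufa11 (chr17:56717512-56717791, plus strand) 2 that overlap, Uqcr11 (chr10:80406792-80407071, minus strand) 1 beside the ETS motif, and Atp5d (chr10:80142025-80142304, plus strand) and Uqcrfs1 (chr13:30545287-30545566, minus strand) none of the 4.
Ndufa8: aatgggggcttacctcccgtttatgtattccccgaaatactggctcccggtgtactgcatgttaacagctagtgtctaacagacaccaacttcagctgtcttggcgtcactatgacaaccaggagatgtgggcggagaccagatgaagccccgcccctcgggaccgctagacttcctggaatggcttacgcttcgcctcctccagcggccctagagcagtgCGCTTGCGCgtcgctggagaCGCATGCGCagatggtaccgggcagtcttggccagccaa
Sdhd: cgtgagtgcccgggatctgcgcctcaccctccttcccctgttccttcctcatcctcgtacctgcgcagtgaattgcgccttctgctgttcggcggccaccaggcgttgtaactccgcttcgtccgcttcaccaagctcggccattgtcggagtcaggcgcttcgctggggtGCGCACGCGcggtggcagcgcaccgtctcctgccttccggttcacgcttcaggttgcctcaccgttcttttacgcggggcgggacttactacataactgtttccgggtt
Ndufa11: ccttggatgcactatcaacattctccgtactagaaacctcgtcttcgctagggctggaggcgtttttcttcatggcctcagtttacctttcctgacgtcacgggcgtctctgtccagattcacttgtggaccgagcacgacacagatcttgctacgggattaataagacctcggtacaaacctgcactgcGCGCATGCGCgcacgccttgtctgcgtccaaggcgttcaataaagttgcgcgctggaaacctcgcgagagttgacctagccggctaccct
Uqcr11: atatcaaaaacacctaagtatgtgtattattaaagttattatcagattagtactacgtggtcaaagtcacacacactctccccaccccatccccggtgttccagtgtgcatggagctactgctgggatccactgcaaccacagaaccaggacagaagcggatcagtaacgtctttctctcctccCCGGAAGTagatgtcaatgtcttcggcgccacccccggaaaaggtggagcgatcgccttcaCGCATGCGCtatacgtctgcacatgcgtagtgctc
Atp5d: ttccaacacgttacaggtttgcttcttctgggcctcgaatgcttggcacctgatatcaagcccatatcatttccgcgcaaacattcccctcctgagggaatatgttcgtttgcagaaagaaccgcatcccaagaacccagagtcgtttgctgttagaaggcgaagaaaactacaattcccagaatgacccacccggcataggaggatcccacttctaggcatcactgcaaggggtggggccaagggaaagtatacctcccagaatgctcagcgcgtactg
Uqcrfs1: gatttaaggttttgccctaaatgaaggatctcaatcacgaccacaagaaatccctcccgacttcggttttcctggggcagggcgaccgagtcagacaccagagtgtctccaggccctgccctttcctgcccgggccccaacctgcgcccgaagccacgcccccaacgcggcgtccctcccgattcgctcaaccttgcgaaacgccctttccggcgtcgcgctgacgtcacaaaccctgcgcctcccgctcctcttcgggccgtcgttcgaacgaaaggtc
A match is a run of letters in the window and not a measured binding site, and no match says only that these letters are absent there.

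Most respiratory chain and ATP synthase genes were higher in the 4 pluripotent lines of set E than in the uninfected MEF. Of 70 members tested, 38 rose and 3 fell, with a median difference of 0.56 against 0.04 over all genes. The test called 57.8 percent of all genes in this comparison, 28.7 percent upward and 29.1 percent downward, so the share of members called in either direction (58.6 percent) is near that of all genes and the split by direction is not. Among genes above the median intensity, 34.2 percent of all genes and 36 of 59 members rose. With the set alone, 50 members rose and 8 fell, against 71.2 percent of all genes called and 36.5 percent upward. All 8 arrays of the lines lay above both MEF arrays for 42 members and below both for 4. This count was not taken over all genes, so whether it is particular to the members was not tested.

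In complex I, which oxidizes NADH, 15 of 32 subunits rose and 2 fell (median 0.53). With the set alone 23 rose and 4 fell. Ndufv3, an accessory subunit of the NADH-oxidizing part, had intensities of 2343 and 2688 on the MEF arrays, 5811 and 6527 in G6Gm, 6434 and 6986 in G3, 7219 and 7515 in Dlx3RNAi, and 11041 and 10318 in R1. Every line lay above the MEF and R1 above the iPSC lines, and the difference of lines and MEF was 1.58 (SE 0.19, adjusted p = 2.85e-08). Ndufb3, an accessory subunit of the membrane arm, stood at 518 and 522 in the MEF and between 1338 and 1818 in the lines (1.53, SE 0.12, adjusted p = 5.49e-12). Ndufb9, another membrane arm subunit, rose from 945 and 1149 to values between 2356 and 3747 (1.52, SE 0.21, adjusted p = 2.32e-07). The falls were small. Ndufc2 stood at 67 and 74.5 in the MEF and 43.5 to 63.7 in the lines, a dim signal (-0.27, SE 0.09, adjusted p = 0.0279), and its call was lost without either MEF array (-0.32 without array 1, -0.22 without array 2). Ndufs4 also fell (-0.33, adjusted p = 0.0352), with its arrays overlapping and its second probe moving the other way by 0.49. Of the 15 subunits that did not pass, differences ran from -0.44 (Ndufa3) to 0.70 (Ndufb6). With the set alone Ndufa3 fell (adjusted p = 0.000679). Ndufb6 read 4415 and 4154 in the MEF and between 5216 and 8096 in the lines. The fit over all arrays includes OKM+SOX2 array 1, where Ndufb6 read 86.2.

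Of the 8 Ndufaf assembly factors, which help build complex I and are not part of it, 6 rose and none fell by limma (7 and none with the set alone; median 0.62). Ndufaf3 stood at 435 and 388 in the MEF and between 794 and 1149 in the lines (1.21, SE 0.16, adjusted p = 2.69e-07). Ndufaf8 stood at 259 and 254 in the MEF, at 302 and 361 in G6Gm and between 565 and 785 in the other lines (1.02, SE 0.20, adjusted p = 8.17e-05).

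Complex II, succinate dehydrogenase, is the only complex of the chain built from nuclear genes alone, and 2 of its 4 members rose (median 0.74). Sdhd, a membrane anchor, had intensities of 1003 and 1096 in the MEF, 2399 and 2735 in G6Gm, 4353 and 4165 in G3, 4061 and 4430 in Dlx3RNAi, and 3626 and 2972 in R1. No line array came near the MEF, with a difference of 1.71 (SE 0.19, adjusted p = 6.41e-09). Sdhb, the iron-sulfur subunit, rose from 2103 and 2600 to values between 4117 and 7079 (1.29, SE 0.18, adjusted p = 4.56e-07). The other anchor Sdhc and the flavoprotein Sdha did not pass (0.19 and 0.08), although Sdhc passed with the set alone.

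Complex III passes electrons from coenzyme Q to cytochrome c, and 4 of its 6 members rose (median 0.76), or 5 with the set alone. The largest rise of a member in this comparison was in Uqcrfs1, the Rieske iron-sulfur protein. It stood at 1567 and 1380 in the MEF, 5008 and 3986 in G6Gm, 5121 and 5578 in G3, 5626 and 5429 in Dlx3RNAi, and 5401 and 6087 in R1, a difference of 1.81 (SE 0.28, adjusted p = 1.93e-06). Uqcr10, a small subunit, rose from 6960 and 6883 to values between 11149 and 20262 (1.21, adjusted p = 2.61e-07), and Uqcrc2, a core protein, by 0.91 (adjusted p = 1.02e-05).

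In complex IV, cytochrome c oxidase, 6 of 10 members rose (median 0.54), and with the set alone 6 rose and 1 fell. Cox6b2, a testis isoform, stood at 484 and 600 in the MEF, 831 and 959 in G6Gm, 1338 and 1416 in G3, 1373 and 1406 in Dlx3RNAi, and 2272 and 2192 in R1 (1.33, SE 0.35, adjusted p = 0.00163), and its second probe rose by 1.42. Cox5b, a subunit of the matrix side, was dim and rose from 118 and 106 to values between 182 and 404 (1.19, SE 0.19, adjusted p = 2.62e-06). Cox7a2 rose by 0.94 (adjusted p = 0.000355) on its brighter probe, while its dimmer probe differed by -0.15. Among paired isoforms, the widely expressed Cox4i1, Cox6a1 and Cox8a did not pass (0.00, -0.33 and -0.06), although Cox6a1 fell with the set alone (adjusted p = 0.0319). Cox4i2, the isoform of lung, and Cox6a2, the isoform of heart and skeletal muscle, rose by 0.56 (adjusted p = 0.0161) and 0.53 (adjusted p = 0.0212) at intensities of at most 155. Both calls were lost without MEF array 2 (0.40 and 0.39), and the second probe of Cox6a2 differed by -0.54. Ndufa4, which associates with complex IV, rose by 0.66 (adjusted p = 0.000545).

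In the ATP synthase, 5 of 10 members rose and 1 fell (median 0.48), and with the set alone 6 rose and 3 fell. Atp5g3, which encodes the proton-carrying c ring, stood at 10438 and 11312 in the MEF and between 18085 and 24289 in the lines (0.97, SE 0.18, adjusted p = 2.48e-05). Atp5d and Atp5e, of the central stalk, rose by 0.82 (adjusted p = 0.000171) and 0.80 (adjusted p = 0.00148), the latter without a call when MEF array 1 was left out (0.66), as was also the case for Atp5g1, a further c ring gene (0.58, adjusted p = 0.00107; 0.38 without that array). Atp5c1, the gamma subunit of the same stalk, went the other way. It stood at 1010 and 415 in the MEF, which differed among themselves, and between 132 and 188 in the lines (-1.87, SE 0.31, adjusted p = 6.19e-06). Atp5b, the catalytic beta subunit, did not pass (-0.26) but fell with the set alone (adjusted p = 0.014). Its Dlx3RNAi arrays read 761 and 787 and those of the other groups between 1079 and 1597. The ATP synthase inhibitor Atpif1, outside the rule by its symbol, rose from 8073 and 7457 to values between 11707 and 14608 (0.71, adjusted p = 0.00149).

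**Figure D1:**
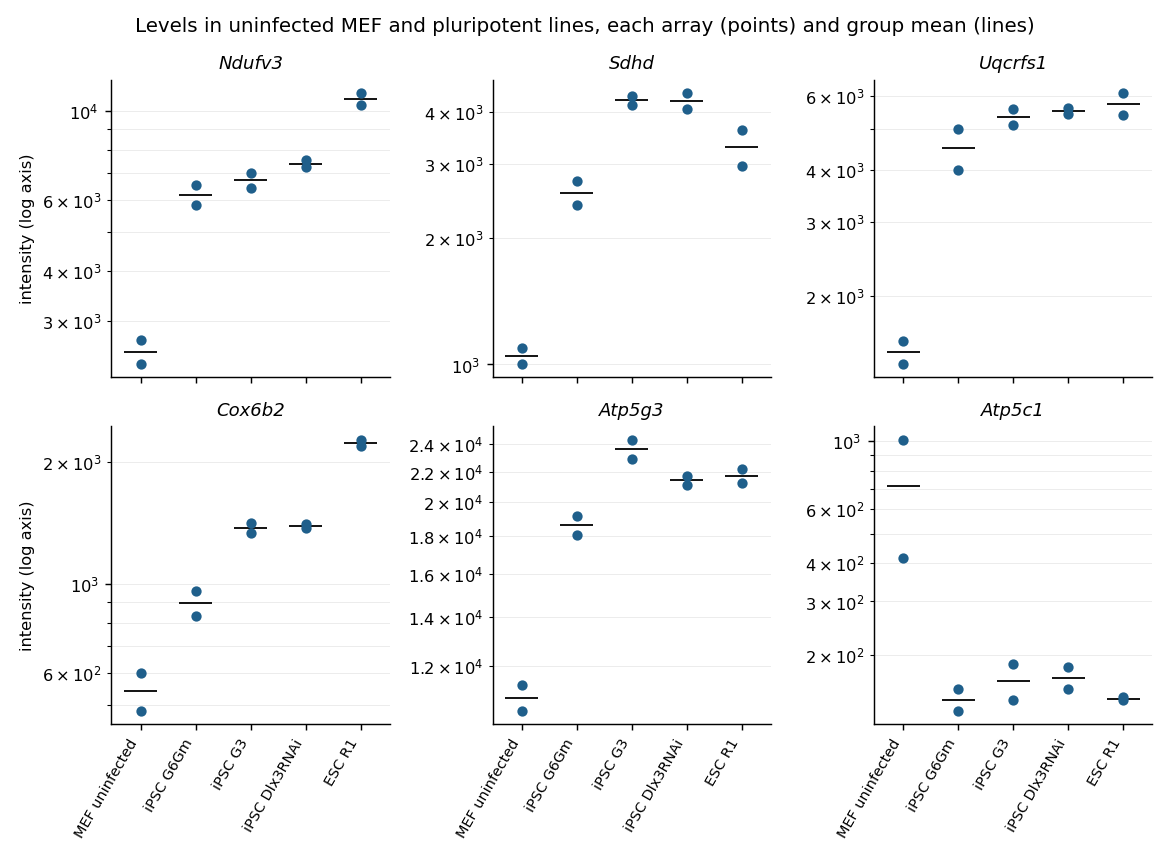
Intensity (log axis) of Ndufv3, Sdhd, Uqcrfs1, Cox6b2, Atp5g3 and Atp5c1 on each array (points) of uninfected MEF, iPSC lines G6Gm, G3 and Dlx3RNAi and ESC R1, with group means (lines; 2 arrays per group). In the first 5 genes every line array lies above the MEF, and in Atp5c1 every line array (132 to 188) lies below MEF arrays at 1010 and 415.

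Other genes of mitochondrial metabolism, in lists chosen with these data already known, gave mixed counts. Of 42 tested genes for cytochrome c and for assembly factors outside the rule, 20 rose and 4 fell (median 0.36). Ecsit, a complex I assembly factor, rose by 1.95, Tmem70, which helps assemble the ATP synthase, by 1.82, and the copper carrier Cox17 by 1.70. Of 23 genes of pyruvate dehydrogenase and the citric acid cycle, 3 rose and 7 fell (median -0.01), with Suclg1 at 1.41 and Sucla2 at -1.29, both subunits of succinyl-CoA ligase. Coenzyme Q synthesis had 4 rises and 2 falls among 9 genes, and mitochondrial DNA upkeep and biogenesis regulators 6 and 5 among 18. Among 7 carriers and uncoupling proteins 2 rose and 3 fell, with Slc25a31, the ATP/ADP carrier of germ cells, at 1.98 and Slc25a4, that of heart and muscle, at -0.52. Of 15 hypoxia targets that act on respiration or glycolysis 9 rose and none fell (median 0.74; 11 and 1 with the set alone), with the glucose transporter Slc2a1 at 3.53 and hexokinase Hk2 at 2.53.

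Markers of several cell types also differed in this comparison. Of 10 measured fibroblast markers 9 fell (median -2.02), and their summed intensity was 42873 to 45955 in the MEF, 31434 to 33483 in G6Gm, 12024 to 12068 in G3, 22509 to 24460 in R1 and 41642 to 47319 in Dlx3RNAi. Of 6 pluripotency markers 5 rose and 1 fell, with sums of 1979 to 2479 in the MEF and 10576 to 18518 in the lines. Of 9 keratinocyte and epithelial markers 7 rose (sums of 2330 to 2356 in the MEF and 5520 to 12854 in the lines), and of 6 macrophage markers 3 fell (2706 to 3013 against 999 to 1894). No marker was at 0 in any group. The part of these cells in the differences was not tested, and in bulk RNA a smaller number of cells of a type and less RNA per cell cannot be told apart. The counts that follow were taken over the members only, so whether their shift is particular to the members was not tested. The count of changed members fell from 41 to 15 when each line's mean entered as 1 sample, and ran from 32 (without MEF array 1) to 43 when any 1 array was left out.

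Few members were called between the pluripotent lines in the fit over all arrays, and more in the fit over set E alone. The iPSC lines, taken as the mean of all 3, had 1 member higher than ESC R1 and 3 lower of 70 (7.19 percent of all genes higher and 6.33 percent lower; 5 and 10 members and 29.8 percent of genes with the set alone), with a median of -0.05 against 0.01. G6Gm had 1 higher and 6 lower (17.6 percent of all genes; 5 and 25 members and 35.3 percent of genes with the set alone) and a median of -0.20. G3 had 1 and 1 (8.42 percent; 4 and 5 members and 20.7 percent of genes with the set alone) with a median of 0.09, and Dlx3RNAi none and 4 (19.4 percent; 4 and 13 members and 37.5 percent of genes with the set alone) with a median of -0.08. These 4 comparisons share the R1 arrays. ESC R1 and the iPSC lines carry different strain labels, so strain and cell origin cannot be told apart in these comparisons. The fibroblast marker sums given above also differed between the lines, and their part in the members' differences was not tested. With the set alone, the 25 lower members in G6Gm stand against 17.1 percent of all genes lower.

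In G6Gm, Ndufaf2, an assembly factor that resembles Ndufa12, stood at 2808 and 2705, against 1398 and 1468 in R1 (0.93, adjusted p = 0.00233). G3 and Dlx3RNAi lay near R1, between 1399 and 1709. G6Gm was low in Ndufaf8, at 302 and 361 against 756 and 698 in R1 (-1.07, adjusted p = 0.00321), in Cox6b2 (-1.29, adjusted p = 0.0374), in Ndufv3 (-0.79, adjusted p = 0.0196), in the methyltransferase Ndufaf7 (-0.70, adjusted p = 0.0168) and in Cox4i1 (-0.61, adjusted p = 0.0277), where its arrays read 17822 and 13461 and the R1 arrays 22629 and 24836. In G3, Ndufb1 stood at 1001 and 968 against 548 and 468 (0.92, adjusted p = 0.0102), and Ndufa12, of the complex I arm that faces the matrix, at 6260 and 7041 against 9958 and 10169 (-0.60, adjusted p = 0.0402). In Dlx3RNAi, Atp5b stood at 761 and 787 against 1597 and 1485 (-0.96, adjusted p = 0.0174) and Ndufs4 at 6762 and 6037 against 10566 and 10623 (-0.73, adjusted p = 0.00237). The other members that fell there were Ndufaf6 (-0.63, adjusted p = 0.00416) and Ndufa12 (-0.60, adjusted p = 0.0208). For the mean of the iPSC lines the calls were Sdhc (0.34, adjusted p = 0.047), Ndufv3 (-0.66, adjusted p = 0.021), Ndufa12 (-0.56, adjusted p = 0.0112) and Ndufaf6 (-0.40, adjusted p = 0.034), whose iPSC and R1 arrays overlapped. The Sdhc call did not outlast the loss of any single array (0.30 to 0.37). Nor did those of Cox6b2 (-1.19 to -1.39) and Ndufv3 (-0.71 to -0.87) in G6Gm, or of Ndufa12 in G3 (-0.51 to -0.68). In Dlx3RNAi the same held for Atp5b (-0.91 to -1.02) and Ndufa12 (-0.58 to -0.61). Further calls were lost without some of the arrays.

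These counts rest on few arrays. The mean over iPSC lines called no member without either R1 array and 2 without G6Gm array 1, G3 array 2 or Dlx3RNAi array 2. For G6Gm the count fell from 7 to 2 without G6Gm array 1 or R1 array 2, to 3 without G6Gm array 2 and to 4 without R1 array 1. For G3 it fell to 0 without either G3 array or R1 array 2. For Dlx3RNAi it fell from 4 to 1 without R1 array 2 or Dlx3RNAi array 2, and to 2 without R1 array 1 or Dlx3RNAi array 1.

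With SKM and the empty vector, 11 subunits of complex I and 1 of its assembly factors rose in fibroblasts in the fit over all arrays. Complex II had 2 rises, complex III 3 and complex V 1. Members of complex IV rose only in the fit to the set alone. Against MEF1 EV, 18 of 62 members rose and none fell by limma, while the test called 19.6 percent of all genes, 9.96 percent of them upward. At an unadjusted p below 0.05 the count of members in either direction was 26, and all genes were not counted at that threshold. The median of the members was 0.45 against -0.02 over all genes, and 59 of the 62 differences were positive. With the set alone 38 rose and none fell, against 34 percent of all genes called and 16.3 percent upward. Among genes above the median intensity, 11.7 percent of all genes rose and 18 of 52 members. The count fell to 8 without MEF1 EV array 1 or without SKM+EV array 2.

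In complex I, 11 of 26 subunits rose (median 0.51), and 20 with the set alone. Ndufa9 differed by 1.00 and passed only with the set alone (adjusted p = 1.19e-05, against 0.299 over all arrays). Its SE was 0.13 with the set alone and 0.62 over all arrays, which include OKM+SOX2 array 1, where Ndufa9 read 367. Ndufa8, an accessory subunit of the membrane arm, stood at 914 and 1014 in MEF1 EV and at 2452 and 2510 in SKM+EV, a difference of 1.34 (SE 0.16, adjusted p = 8.56e-08). The core iron-sulfur subunits Ndufs8 and Ndufs7 rose by 1.09 (SE 0.24, adjusted p = 0.00107) and 1.04 (SE 0.24, adjusted p = 0.00147), but their arrays differed within the groups, Ndufs8 reading 858 and 1596 in MEF1 EV and 2024 and 3176 in SKM+EV. Without MEF1 EV array 1 or SKM+EV array 2 neither passed, with differences of 0.66 and 0.77 for Ndufs8 and 0.66 and 0.73 for Ndufs7. Of 5 Ndufaf factors 1 rose, Ndufaf6, from 1717 and 1498 to 2972 and 2912 (0.86, SE 0.16, adjusted p = 0.000127).

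In complex II, Sdhb rose from 4684 and 5161 to 9055 and 9911 (0.94, SE 0.23, adjusted p = 0.00297) and Sdhc from 6104 and 5483 to 8932 and 9239 (0.65, SE 0.14, adjusted p = 0.000928). In both genes the groups did not overlap. In complex III, 3 of 6 rose (median 0.67): the core proteins Uqcrc1 (0.77, adjusted p = 0.00191) and Uqcrc2 (0.67, adjusted p = 0.0136), and Uqcr10 (0.67, adjusted p = 0.021). Each of these 3 calls was lost without MEF1 EV array 1 (0.50, 0.52 and 0.47) and without SKM+EV array 2 (0.41, 0.38 and 0.52).

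Complexes IV and V had 1 call over all arrays. None of 10 complex IV members passed by limma over all arrays, although 5 rose with the set alone, and the median of the 10 was 0.36. Cox5a read 30756 and 31840 in MEF1 EV and 61574 and 50328 in SKM+EV (0.83, adjusted p = 0.626). With the set alone Cox5a rose (adjusted p = 3.94e-05), its SE being 0.12 there and 0.94 over all arrays. The fit over all arrays includes OKM+SOX2 array 1, where Cox5a read 365. Cox4i1 read 37966 and 36943 in MEF1 EV and 53248 and 48627 in SKM+EV (0.44, adjusted p = 0.121), and Cox6b2 differed by 0.88 (adjusted p = 0.167) and on its second probe by 0.09. Of 11 ATP synthase members 1 rose over all arrays and 4 with the set alone (Atp5d, Atp5g1, Atp5j2 and Atp5k). Atp5d rose in both fits, from 316 and 509 to 890 and 1220 (1.31, SE 0.22, adjusted p = 3.8e-05). The other 10 ran from -0.11 (Atp5a1) to 0.45 (Atp5g1). Whether the complexes differ from each other was not tested.

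**Figure D2:**
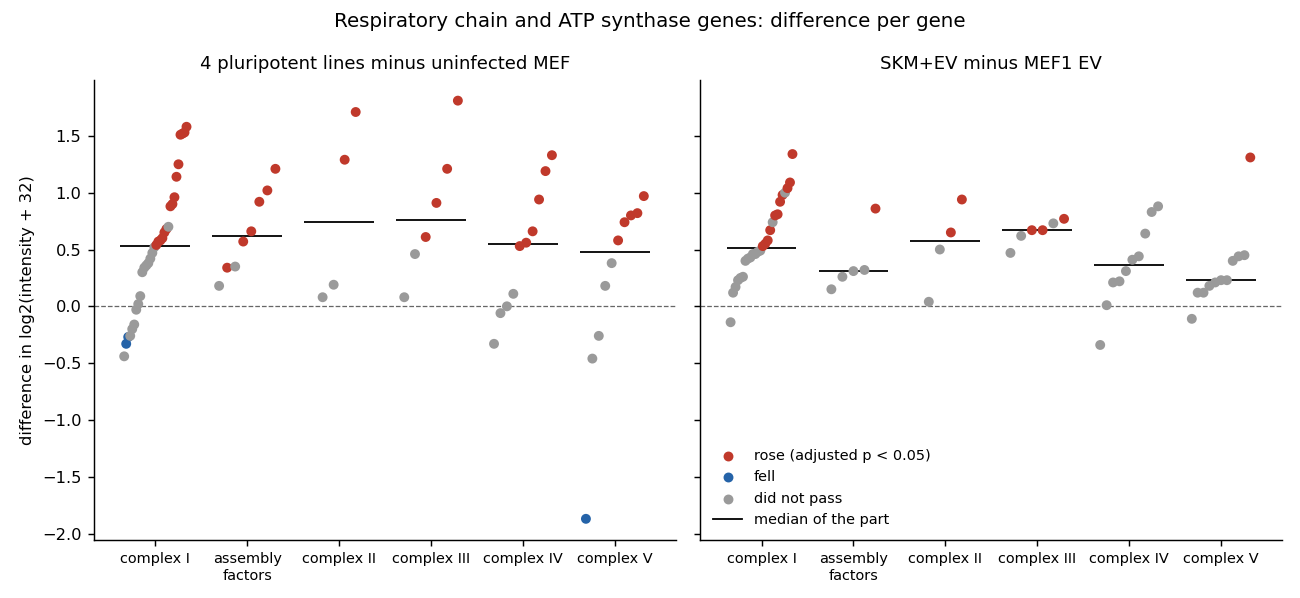
Difference in log2(intensity + 32) of each member gene (points), by complex, for the 4 pluripotent lines minus uninfected MEF (left; 8 against 2 arrays) and SKM+EV minus MEF1 EV (right; 2 against 2 arrays), with the median of each complex (lines). Red points rose, blue fell and grey did not pass at an adjusted p of 0.05; medians run from 0.48 to 0.76 on the left and from 0.23 to 0.67 on the right.

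Of 38 tested assembly factors outside the rule 4 rose and none fell (12 and 1 with the set alone; median 0.24), among them Cox17 (0.91), Ecsit (0.86) and the complex IV factor Surf1 (0.74). Pyruvate dehydrogenase and the citric acid cycle had 1 rise (citrate synthase Cs, 0.52) and 2 falls among 21 genes, the largest in the phosphatase Pdp1 (-1.68). Of 13 hypoxia targets 5 rose (median 0.59), with the prolyl hydroxylase Egln3 at 2.49 and Ddit4 at 1.38. Markers of other cells moved as well. Of 9 keratinocyte and epithelial markers 8 rose, their summed intensity going from 2741 to 3127 in MEF1 EV to 116685 to 116928 in SKM+EV, 5 of 10 fibroblast markers fell (150214 to 159807 against 96086 to 104375) and 3 of 3 adipocyte markers fell (3435 to 3621 against 527 to 661). Their part in the members' differences was not tested.

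Rises were also counted by promoter motif. In the 4 lines 6 of 15 tested members with an NRF1 motif rose (median 0.35) and 26 of 43 without one (median 0.65). With SKM+EV the numbers were 4 of 13 (median 0.41) and 10 of 37 (median 0.46). These are descriptions of the windows, and no difference between holders and the others was tested.

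**Figure D3:**
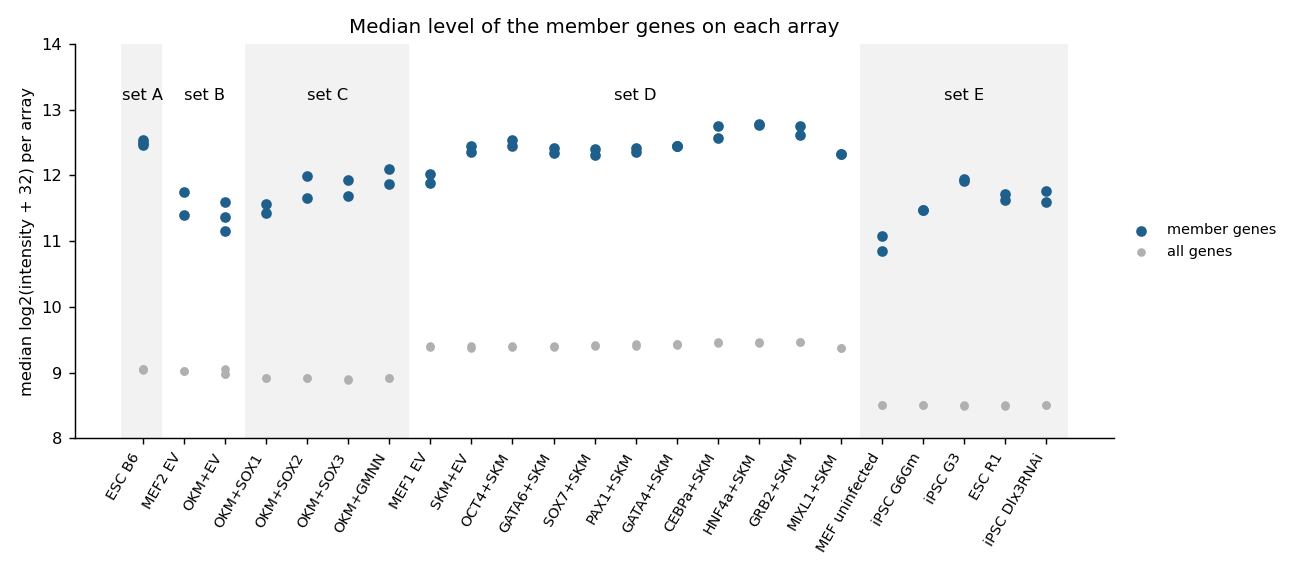
Median log2(intensity + 32) of the member genes (blue) and of all genes (grey) on each of 49 arrays, by group and normalization set (shading). Levels are comparable within a set only, and the gap between blue and grey compares different probes; within set E the MEF arrays (10.85 and 11.07) lie below all lines (11.47 to 11.94), and within set D MEF1 EV (12.02 and 11.89) lies below all SKM groups (12.31 to 12.78).

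Further factors were set against SKM+EV, in comparisons that all share its 2 arrays. With MIXL1, a mesendoderm homeobox factor, no member of 62 passed by limma, against 2.08 percent of all genes called. At an unadjusted p below 0.05 there were 4 members, a count not taken over all genes. The set alone gave 1 rise and 1 fall, against 6.86 percent of all genes. With SOX7, 1 member rose (12.1 percent of all genes; 6 rises and 3 falls with the set alone, against 24.8 percent). This was Ndufa10, at 21049 and 17561 against 12213 and 15638 (0.48, adjusted p = 0.0328), and its call was lost without SKM+EV array 1 (0.30) or SOX7+SKM array 1 (0.34), whereas 3 members passed without SKM+EV array 2. With PAX1, 2 members fell (15.7 percent of all genes; 12 falls and no rise with the set alone, against 32.7 percent of all genes called and 13.3 percent downward) and the median was -0.12 against 0.03 over all genes. The 2 were Ndufa11 (-0.56, adjusted p = 0.0286), at 1206 and 1197 against 1827 and 1744, and Ndufa8 (-0.54, adjusted p = 0.0169), at 1872 and 1541 against 2452 and 2510. The count fell to 1 without PAX1+SKM array 1 and to 0 without any of the other 3 arrays. Of 9 keratinocyte and epithelial markers 7 fell with PAX1 (sums of 18662 to 21051 against 116685 to 116928 in SKM+EV) and 3 with SOX7 (91626 to 104950). Their part in the members' values was not tested.

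With OCT4, 3 members rose and 2 fell (11 percent of all genes; 6 and 5 with the set alone, against 23 percent), and the median was 0.01. Ndufs4 stood at 39032 and 43369 against 27445 and 21259 (0.77, adjusted p = 0.00223), Ndufaf6 at 4838 and 5091 against 2972 and 2912 (0.75, adjusted p = 0.00125), and Ndufa12 rose by 0.64 (adjusted p = 0.0202). Ndufa8 stood at 1256 and 1283 against 2452 and 2510 (-0.95, adjusted p = 5.67e-05) and Ndufa11 at 1072 and 957 against 1827 and 1744 (-0.80, adjusted p = 0.00208), so that both lay near their levels in MEF1 EV. Without SKM+EV array 2 the count fell from 5 to 3, Ndufs4 (0.58) and Ndufa12 (0.50) no longer passing. The Ndufa12 call was also lost without either OCT4+SKM array (0.59 and 0.69). Beside these, 4 of 9 keratinocyte and epithelial markers fell with OCT4 (sums of 60703 to 62683 against 116685 to 116928), and their part was not tested.

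With GATA6, an endoderm factor, 8 members rose and none fell by limma (22 percent of all genes, 11.8 percent upward; 14 and 4 with the set alone, against 35 percent), a share of 12.9 percent. Cox6b2 stood at 2222 and 2599 against 575 and 1128 (1.54, adjusted p = 0.01), and Ndufa6, of the complex I arm that faces the matrix, at 16451 and 21733 against 8262 and 11969 (0.92, adjusted p = 0.013). Ndufs7 rose by 0.79 (adjusted p = 0.0144) and Atp5d by 0.71 (adjusted p = 0.0178). The SKM+EV arrays differed in these genes, and no member passed without SKM+EV array 1 or without GATA6+SKM array 2. Of 10 fibroblast markers 7 fell with GATA6 (sums of 51705 to 53017 against 96086 to 104375), and of 9 keratinocyte and epithelial markers 2 rose and 4 fell. Their part in the members' values was not tested.

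With GATA4, 21 of 62 members rose (33.9 percent, against 29 percent of all genes) and 4 fell (6.45 against 24.9 percent). In either direction 40.3 percent of members and 53.9 percent of all genes were called, and these differences in share were not tested. With the set alone 28 rose and 7 fell, against 66.3 percent of all genes called. The median was 0.23 against 0.06. Uqcr11, a small complex III subunit, stood at 253 and 234 in SKM+EV and at 776, 725 and 832 in GATA4+SKM (1.55, SE 0.37, adjusted p = 0.00096). Ndufb5, of the complex I membrane arm, stood at 833 and 1206 against 2986, 2304 and 2598 (1.35, SE 0.27, adjusted p = 0.000126), Atp5b at 2045 and 2738 against 5956, 5303 and 5250 (1.20, SE 0.26, adjusted p = 0.000385) and Ndufa6 at 8262 and 11969 against 26110, 19529 and 18817 (1.09, SE 0.24, adjusted p = 0.000637). In each of these genes all 3 GATA4+SKM arrays lay above both SKM+EV arrays. The falls were in Ndufa3, at 6084 and 6369 against 3601, 3894 and 2797 (-0.87, adjusted p = 0.00648), Sdhc, at 8932 and 9239 against 6624, 6426 and 7053 (-0.44, adjusted p = 0.0051), and the dim isoforms and subunits Cox5b (-0.63, adjusted p = 0.0144) and Cox4i2 (-0.53, adjusted p = 0.0489). Cox5b was not called without either SKM+EV array (-0.65 and -0.61) or GATA4+SKM array 3 (-0.55), and Cox4i2 was lost without either SKM+EV array (-0.41 and -0.65) or GATA4+SKM array 1 or 3 (-0.46 and -0.47). Atp5d rose by 1.07 (adjusted p = 5.96e-05) and Atp5g1 by 0.87 (adjusted p = 7.72e-05). In complex IV, Cox6a1 rose by 0.67 (adjusted p = 0.00288) and Ndufa4 by 0.61 (adjusted p = 0.00475), calls lost without SKM+EV array 1 (0.54) and array 2 (0.44) respectively. The total fell from 25 to 14 without SKM+EV array 1. Of 21 genes of pyruvate dehydrogenase and the citric acid cycle 8 rose and 3 fell (median 0.36), and of 38 assembly factors outside the rule 12 rose and 3 fell. Beside them 8 of 9 keratinocyte markers fell (sums of 116685 to 116928 against 27721 to 30606) and 9 of 10 fibroblast markers fell (96086 to 104375 against 57424 to 60370).

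Several members stood far higher in fibroblasts with SKM and HNF4a, CEBPa or GRB2 than with SKM alone. HNF4a and CEBPa are liver transcription factors, and GRB2 is an adaptor of receptor tyrosine kinase signalling. With HNF4a 24 members rose and 3 fell (42.4 percent of all genes called, 22.9 percent upward; 32 and 8 members and 57.1 percent of genes with the set alone), with CEBPa 18 and 3 (34.6 percent, 19.9 percent upward; 28 and 6 members and 50.1 percent with the set alone) and with GRB2 15 and 1 (40.3 percent, 23.1 percent upward; 24 and 5 members and 55.7 percent with the set alone). The medians were 0.39, 0.29 and 0.24, against 0.02, 0.02 and 0.07 over all genes.

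Ndufa11, an accessory subunit of the complex I membrane arm, stood at 957 and 1047 in MEF1 EV, 1827 and 1744 in SKM+EV, 11189 and 12419 with HNF4a, 11059 and 9653 with CEBPa and 7659 and 7286 with GRB2. The 6 arrays of these groups lay above all others of set D, of which the highest was a GATA4+SKM array at 2487. The differences from SKM+EV were 2.70 (SE 0.18, adjusted p = 3.56e-13), 2.51 (adjusted p = 2.99e-12) and 2.05 (adjusted p = 2.74e-10). A second Ndufa11 probe, very dim, read 38 and 77 in SKM+EV and 28 to 84 in these groups, with differences of 0.30, -0.17 and 0.00, so the rise rests on 1 probe. Ndufa8 was 7370 and 7380 with HNF4a, 7252 and 6925 with CEBPa and 6204 and 5658 with GRB2, against 2452 and 2510 (1.56, 1.5 and 1.25).

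Atp5d, the delta subunit of the ATP synthase, was high in the same 3 groups. It stood at 890 and 1220 in SKM+EV, 6599 and 6864 with HNF4a, 5682 and 6768 with CEBPa and 4859 and 6011 with GRB2, with differences of 2.65 (SE 0.22, adjusted p = 5.18e-11), 2.54 (adjusted p = 2.02e-10) and 2.34 (adjusted p = 1.26e-09). It was the only ATP synthase member called with CEBPa or GRB2, while Atp5g1 also rose with HNF4a (0.47, adjusted p = 0.038), a call lost without SKM+EV array 1 (0.29) or either HNF4a+SKM array (0.54 and 0.40). In complex III, Uqcr11 rose from 253 and 234 to 1958 and 1933 with HNF4a, 1257 and 1210 with CEBPa and 879 and 760 with GRB2 (2.84, adjusted p = 2.02e-06; 2.20, adjusted p = 0.000106; 1.62, adjusted p = 0.00229). Uqcrq, which sits beside the cytochrome b subunit, rose from 2615 and 2500 to 12350 and 11020, 8273 and 9601, and 6343 and 7261 (2.18, adjusted p = 2.87e-05; 1.79, adjusted p = 0.000412; 1.40, adjusted p = 0.00377).

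The assembly factors split. Ndufaf8 rose from 461 and 413 to 1525 and 1287 with HNF4a, 1471 and 1345 with CEBPa and 1270 and 1363 with GRB2 (1.61, 1.62 and 1.52). Ndufaf6 fell from 2972 and 2912 to 1551 and 1321, 1527 and 1597, and 2146 and 2055 (-1.02, adjusted p = 6.06e-06; -0.90, adjusted p = 4.88e-05; -0.48, adjusted p = 0.0163), while the arrays of PAX1 read 2310 and 2356 (-0.33, adjusted p = 0.161, and 0.0309 with the set alone) and those of OCT4, SOX7, GATA4, GATA6 and MIXL1 between 3415 and 5091. The GRB2 call of Ndufaf6 was lost when any 1 of its 4 arrays was left out (-0.45 to -0.51). Smaller falls were in Ndufaf7 (-0.54, adjusted p = 0.0372) and Ndufv2 (-0.50, adjusted p = 0.0106) with HNF4a and in Ndufaf2 (-0.55, adjusted p = 0.0484) and Ndufb10 (-0.53, adjusted p = 0.0463) with CEBPa. Leaving out 1 array ended the calls of Ndufaf7 (-0.48 to -0.60 over its 4 arrays), Ndufaf2 (-0.46 to -0.63) and Ndufb10 (-0.47 to -0.59) whichever array it was, and that of Ndufv2 without SKM+EV array 1 (-0.42) or HNF4a+SKM array 2 (-0.47).

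In complex IV, Ndufa4 rose with HNF4a (0.84, adjusted p = 0.000942) and CEBPa (0.66, adjusted p = 0.00896), and the latter call was lost without SKM+EV array 2 (0.48) or CEBPa+SKM array 2 (0.57). Cox6b2 rose with HNF4a (1.24, adjusted p = 0.0232) and lost its call without SKM+EV array 1 (0.77) or either HNF4a+SKM array (1.29 and 1.19), while its second probe differed by 2.80. Cox4i1 read 40209 and 40489 with HNF4a against 53248 and 48627 in SKM+EV, a fall in the fit over set D alone (-0.33) but not over all arrays (adjusted p = 0.172). Without SKM+EV array 1 the counts fell from 27 to 15 with HNF4a and from 21 to 10 with CEBPa. They fell to 17 and 16 without HNF4a+SKM array 1 or 2, and to 11 without CEBPa+SKM array 2.

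**Figure D4:**
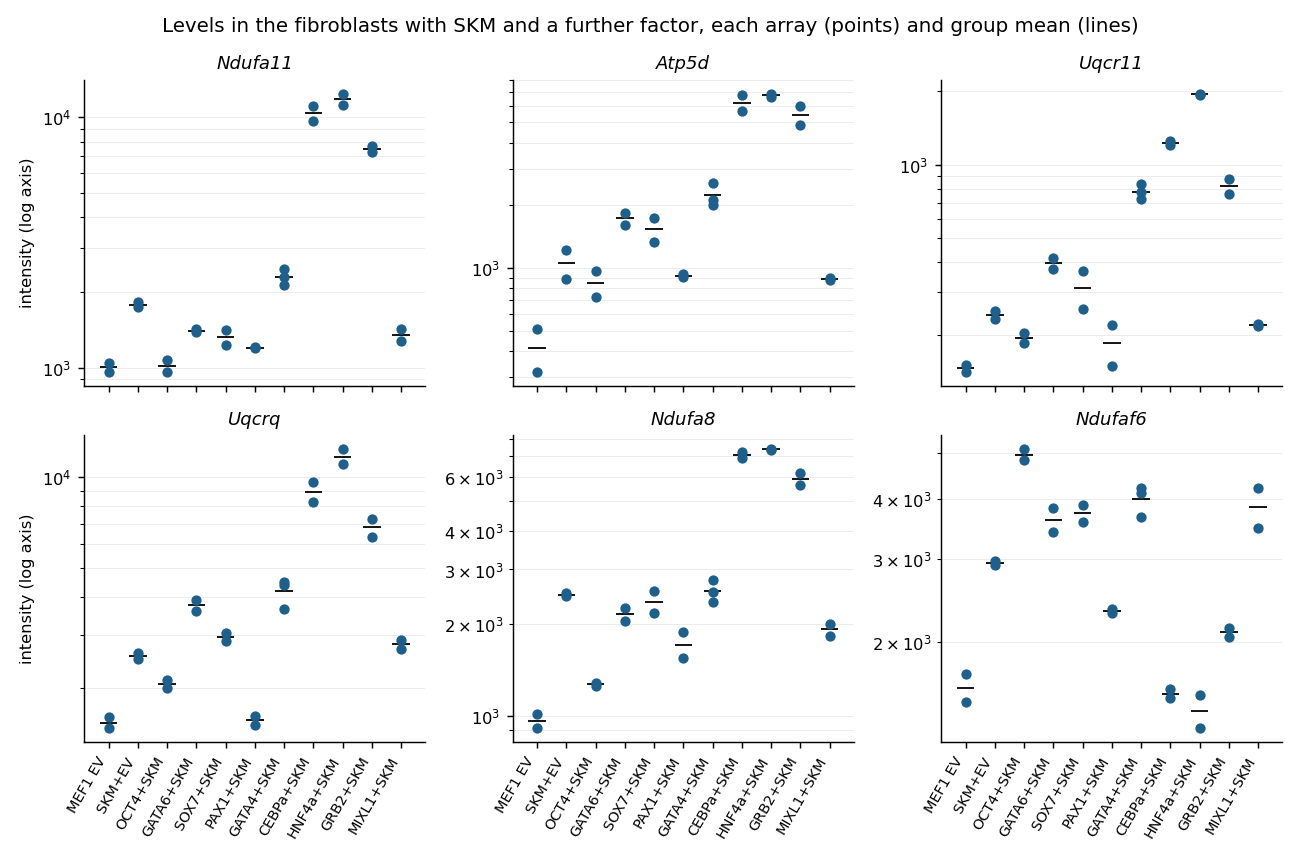
Intensity (log axis) of Ndufa11, Atp5d, Uqcr11, Uqcrq, Ndufa8 and Ndufaf6 on each array (points) of MEF1 EV and the 10 SKM groups, with group means (lines; 3 arrays with GATA4+SKM, 2 in every other group). In the first 5 genes the arrays with CEBPa, HNF4a and GRB2 lie above SKM+EV, and in Ndufaf6 they lie below it.

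These 6 arrays are also those whose median intensity stands apart in set D, and what else differs between them and the rest cannot be told apart from the factors. HNF4a was also set against CEBPa and GRB2, a comparison added after these values were seen. No member of 62 passed by limma and 0.459 percent of all genes did. At an unadjusted p below 0.05 there were 5 members, a count not taken over all genes. The set alone gave 4 rises and no fall, against 1.4 percent of all genes. The median was 0.07 against -0.02. A p that misses the threshold does not show that the groups act alike. Of 9 keratinocyte and epithelial markers 9 fell with HNF4a, 9 with GRB2 and 8 with CEBPa, their sums going from 116685 to 116928 in SKM+EV to 21429 to 21768, 25053 to 25342 and 37795 to 39785, while fibroblast markers summed to 97573 to 102642 in the 3 groups and 96086 to 104375 in SKM+EV. With HNF4a 11 of 38 assembly factors outside the rule rose and 3 fell (median 0.12), and of 13 hypoxia targets 2 rose and 3 fell.

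**Figure D5:**
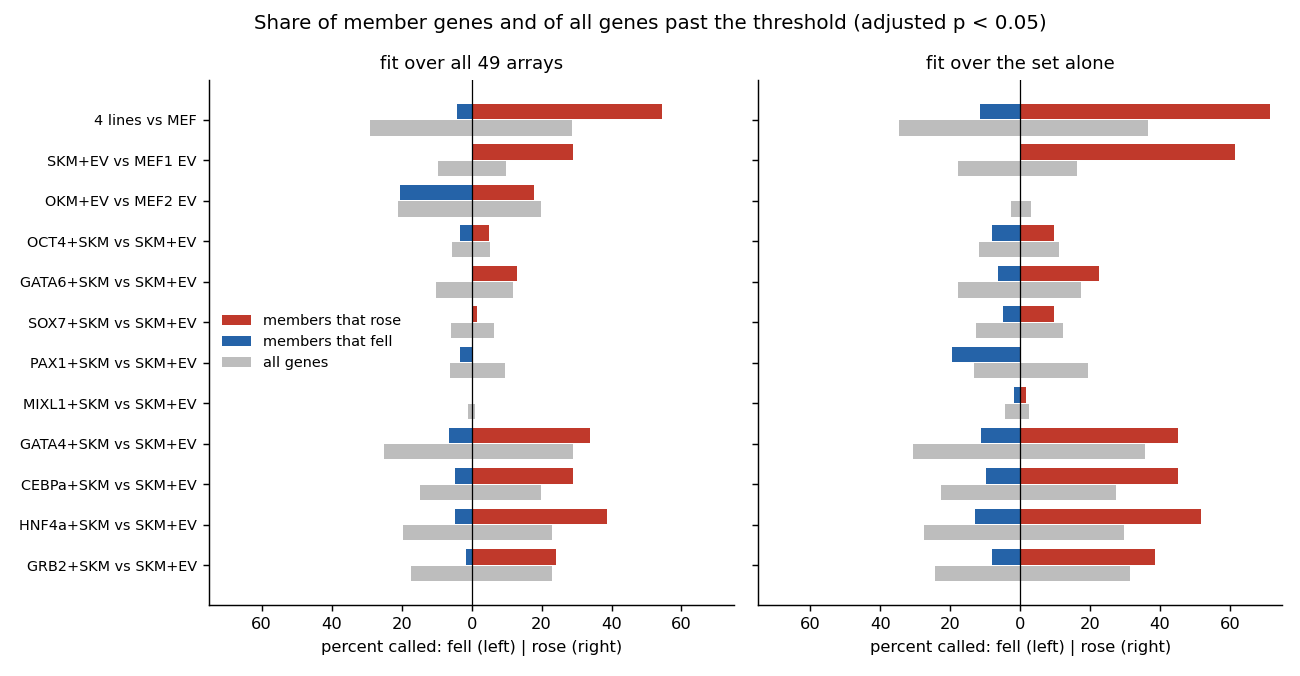
Share of tested members that rose (red) or fell (blue) and of all tested genes that rose or fell (grey), in percent, at an adjusted p of 0.05, in the fit over all 49 arrays (left) and over each set alone (right). The members exceed all genes upward in the 4 lines against MEF (54.3 against 28.7 percent, left) and in SKM+EV against MEF1 EV (29 against 9.96 percent), and OKM+EV has no member called in the fit over its set.

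In the OKM series the arrays did not separate the groups as well. Against MEF2 EV, OKM+EV had 13 of 73 members higher and 15 lower in the fit over all arrays (40.8 percent of all genes called). None passed in the fit over set B (5.57 percent of all genes). In that fit 17 members had an unadjusted p below 0.05, a count not taken over all genes. Without OKM+EV array 3, the fit over set B called 20 up and 14 down (46.7 percent of all genes), with a median of 0.06, and the fit over all arrays called 42 in place of 28. With all arrays the medians of the members were -0.07 and of all genes -0.01. Ndufs3, a core complex I subunit, shows what array 3 does: it stood at 349 and 359 in MEF2 EV, at 1378 and 1366 on OKM+EV arrays 1 and 2 and at 394 on array 3 (1.29, adjusted p = 0.00433, and 0.25 with the set alone).

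In 31 of the 73 members all 3 OKM+EV arrays lay on the same side of both MEF2 EV arrays, above them in 16 and below in 15. The same was not counted over all genes, so whether this share is particular to the members was not tested. The fit over set B called none of them. Uqcrc2 stood at 6953 and 9513 against 19600, 24058 and 15415 (1.25, adjusted p = 1.12e-06; 0.0502 with the set alone), and Ndufa4 at 5718 and 6172 against 17540, 17107 and 9183 (1.23, adjusted p = 1.2e-06; 0.0816 with the set alone). Ndufaf6 stood at 673 and 910 against 1703, 1711 and 1646 (1.08, adjusted p = 3.7e-07; 0.0873 with the set alone), Sdhb at 1712 and 1227 against 2319, 3071 and 5722 (1.23, adjusted p = 1.71e-05; 0.148 with the set alone), and Atp5o, of the stalk that holds the ATP synthase head, at 53.4 and 71.4 against 256, 263 and 146 (1.40, adjusted p = 0.000347; 0.0574 with the set alone). On the other side Atp5k, a membrane subunit of the ATP synthase, read 1630 and 3444 against 859, 813 and 707 (-1.55, adjusted p = 5.25e-07; 0.0668 with the set alone) and Cox6c 179 and 201 against 92.2, 71 and 59.2 (-1.07; 0.0576 with the set alone). Ndufa2 read 4672 and 8001 against 2964, 3620 and 2244 (-1.07), the MEF2 EV arrays differing among themselves. The cells differed in other markers, with 6 of 6 macrophage markers higher in MEF2 EV (sums of 34809 to 42764 against 1090 to 3997 in OKM+EV), and adipocyte markers summed to 55236 to 67799 against 11589 to 36806. Keratinocyte markers summed to 2265 to 2668 in MEF2 EV and 51170 to 87334 in OKM+EV. The part of these cells in the members' values was not tested.

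With OKM, SOX1, SOX3 and GMNN (geminin) were each set against SOX2, on the same 2 OKM+SOX2 arrays. SOX1 had 4 of 67 members higher and 3 lower (5.72 percent of all genes), SOX3 5 and 4 (6.32 percent) and GMNN 3 and 1 (7.22 percent). In the fit over set C none passed in any of the 3, with or without OKM+SOX2 array 1, and 13, 16 and 7 members had an unadjusted p below 0.05. That fit called 0.197, 0.241 and 2.01 percent of all genes with the array and 0.259, 0.259 and 2.1 percent without it. The largest differences rest on that array. Cox5a, a complex IV subunit, read 43457 and 42066 with SOX1 and 365 and 38452 with SOX2 (3.45, adjusted p = 0.0305, and 0.42 with the set alone), differed by 0.15 without OKM+SOX2 array 1 and also lost its call without either OKM+SOX1 array (3.43 and 3.48). Ndufa9, of complex I near the coenzyme Q site, read 16312 and 16099 with SOX3 and 367 and 10436 with SOX2 (2.99, adjusted p = 0.00436, and 0.287 with the set alone), and differed by 0.63 without OKM+SOX2 array 1. Sdhc lay on the same side on every array, at 6760 and 8627 with SOX1, 8529 and 8627 with SOX3 and 5976 and 5087 with SOX2 (0.47, adjusted p = 0.0447 and 0.63, adjusted p = 0.0071; 0.386 and 0.229 with the set alone). Its SOX1 call was lost without OKM+SOX1 array 2 (0.29) or either OKM+SOX2 array (0.58 and 0.35), and its SOX3 call without either OKM+SOX3 array (0.64 and 0.63). Without OKM+SOX2 array 1 no member passed for SOX1 or GMNN and 2 for SOX3. Leaving out 1 of the other arrays gave 0 (without OKM+SOX1 array 2) to 10 for SOX1, 1 (without OKM+SOX3 array 1) to 14 (without OKM+SOX2 array 2) for SOX3 and 0 (without OKM+GMNN array 2) to 6 for GMNN.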

How the data were processed

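The deposited table held linear intensity values of 49 one-colour (Cy5) arrays, normalized by the authors before deposit. How they were normalized and background-corrected is not given in the sources used here, and no detection flag was used. Arrays that lack a value for the same probes form 5 groups, taken as sets normalized apart. Of 19426 probes 15539 had 1 gene symbol, of which 13971 were matched to the RefSeq table by current symbol, 1538 by synonym and 30 kept the platform's name, giving 13852 genes, and the brightest probe stood for a gene. Values were tested as log2(intensity + 32) with limma 3.58.1 in R 4.3.3, with 1 mean per group over all 49 arrays, an intensity trend and Benjamini-Hochberg adjustment over all genes of a comparison, at a threshold of 0.05. The fit pools the spread of all sets, so a fit of each set alone was run beside it. The code was tested on simulated data.

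Genes named were, by complex, the largest changes past the threshold whose arrays do not overlap (up to 3 each way, 2 for assembly factors, and 4 each way over all members in the comparisons of factors and lines). Up to 4 genes of each other list were named as well. Paired isoforms are given in some comparisons only. Those left out include Cox6a1 (0.41) and Cox8a (0.31) in SKM+EV against MEF1 EV, which rose with the set alone. Further genes, among them Ndufc2, Ndufs4, Sdha and Sdhc, were named after their values were seen. The members, the lists and the motifs were chosen with earlier results of these data known. Alternatives were other pseudocounts, 75th percentile scaling, the mean of probes, no intensity trend, genes above the median level, the replicate number as a block, line means as replicates, and leaving out each array. The number of arrays limits the precision, and no array gives a background level.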

Additional observations from a re-analysis of the deposited data

Results flagged for a closer look

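Some members moved in opposite directions with different factors on top of SKM, and the difference between the comparisons was itself tested with limma. Only members already called in opposite directions on the same arrays are given. Small p-values of the differences follow from that choice and are no further support. All of them share the SKM+EV arrays, and the groups with HNF4a, CEBPa and GRB2 are those whose array medians stand apart. The largest adjusted p of the set D differences was 9.89e-06. Ndufa11 fell with OCT4 and PAX1 and rose with the other 3 factors. OCT4 minus CEBPa was -3.31, minus HNF4a -3.5 and minus GRB2 -2.84, and PAX1 minus CEBPa was -3.07, minus HNF4a -3.26 and minus GRB2 -2.6. In these differences Ndufa8 behaved likewise, at -2.45, -2.51 and -2.19 for OCT4 and -2.04, -2.1 and -1.78 for PAX1. The PAX1 calls of both genes against SKM+EV were lost when 1 of several arrays was left out.

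Ndufaf6 rose with OCT4 and GATA4 and fell with the same 3 factors. OCT4 minus CEBPa was 1.65, minus HNF4a 1.77 and minus GRB2 1.23, and GATA4 minus CEBPa was 1.34, minus HNF4a 1.46 and minus GRB2 0.92. Ndufa3 fell with GATA4 and rose with the others, with differences of -1.66 against CEBPa, -1.93 against HNF4a and -1.59 against GRB2. GATA4 and HNF4a also differed in Ndufv2 (1.13), which is dim, and in Sdhc (-0.81).

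Ndufb7, chosen in the same way, rose with SKM+EV against MEF1 EV (0.67) and fell with OKM+EV against MEF2 EV (-0.81). The difference was 1.48 (adjusted p = 1.33e-05 by limma). The OKM side did not pass in the fit over set B alone, and the comparisons differ in their set, their control fibroblasts and the factor OCT4 in place of SOX2, which cannot be told apart.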

How the results depend on the processing

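Counts of changed members kept within 1.5 times of those reported under other pseudocounts, 75th percentile scaling and no intensity trend. With the mean of a gene's probes PAX1 had 1 in place of 2, and among genes above the median level SOX3 had 14 in place of 9. Cox6a2 in the 4 lines against MEF lost its sign and was 0 with the mean of its probes (adjusted p = 0.979). Medians of the members near 0 also changed sign. That of OKM+EV went from -0.07 to 0.06 without OKM+EV array 3 and with the replicate block. Without OKM+SOX2 array 1 those of SOX1, SOX3 and GMNN went from -0.08, -0.05 and -0.01 to 0.03, 0.12 and 0.03, and that of SOX3 was 0.10 without OKM+SOX3 array 1. That of OCT4 went from 0.01 to -0.05 without SKM+EV array 1, and that of MIXL1 from 0.02 to -0.01 and -0.02 without SKM+EV array 1 and 2. With each line's mean as 1 sample, 15 members changed in the 4 lines against MEF and 0 in the iPSC mean against R1.

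Fits over a set alone gave 15 for the iPSC mean, 30 for G6Gm, 9 for G3, 17 for Dlx3RNAi, 38 for SKM+EV, 11 for OCT4, 18 for GATA6, 9 for SOX7, 12 for PAX1, 34 for CEBPa, 29 for GRB2, 2 for MIXL1, 4 for HNF4a against CEBPa and GRB2, and 0 for OKM+EV and for SOX1, SOX3 and GMNN against SOX2. The last 3 stayed at 0 without OKM+SOX2 array 1, and OKM+EV had 34 without OKM+EV array 3, both chosen after seeing the data.

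Replicate numbers are shared between groups only as numbers, and the correlation of same-numbered arrays' deviations ran from -0.403 to 0.516. With the number as a replicate block the counts were 11 for the iPSC mean, 18 for G6Gm, 4 for G3, 8 for Dlx3RNAi, 14 for GATA6, 6 for SOX7, 5 for PAX1, 13 for SOX1, 20 for SOX3, 7 for GMNN and 3 for HNF4a against CEBPa and GRB2, and within 1.5 times of the reported count in the other comparisons.

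Leaving out each array in turn gave 32 to 43 for the 4 lines, 0 to 3 for the iPSC mean, 2 to 4 for G6Gm, 0 to 2 for G3, 1 to 2 for Dlx3RNAi, 8 to 20 for SKM+EV, 3 to 5 for OCT4, 0 to 10 for GATA6, 0 to 3 for SOX7, 0 to 1 for PAX1, 14 to 22 for GATA4, 10 to 18 for CEBPa, 15 to 23 for HNF4a, 11 to 14 for GRB2, 0 for MIXL1 and for HNF4a against CEBPa and GRB2, 21 to 42 for OKM+EV, 0 to 10 for SOX1, 1 to 14 for SOX3 and 0 to 6 for GMNN. A group left with 1 array is assumed to vary like the others. Counts with line means, with the replicate block or from the fit over all arrays with 1 left out were taken over the members only. Where counts moved, the cause was not tested, and no array gives a background level, so a small difference in a dim gene is open to it.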
